A study of Mus musculus with 4 samples.

Results

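The 10 genes examined here are mouse genes widely used to describe alternative activation of macrophages: Il4ra, Egr2, Arg1, Tgm2, Fn1, Retnla, Chil3, Mgl2, Clec10a and Pdcd1lg2. Every H3K4me3 or H3K9me3 peak that overlapped one of these genes, or lay within 2500 bp of it, was taken from 4 peak lists. This gave 21 peaks: 8 of 31398 in the H3K4me3 list of wild-type cells, 8 of 28505 in that of Sun-/- cells, 3 of 19279 in the H3K9me3 list of wild-type cells and 2 of 17369 in that of Sun-/- cells. All 10 genes were found in the RefSeq annotation, among 21883 protein-coding genes on the chromosomes of the peak lists.

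The cells were peritoneal macrophages drawn out with thioglycollate broth from C57BL/6 mice aged 8 weeks and then kept in culture in serum-containing medium. The 2 genotypes were wild type and Sun-/-, a name that the labels do not explain further. No cytokine treatment is given in the labels of either genotype. Chromatin immunoprecipitation with sequencing (ChIP-seq) was done with 1 library per mark and genotype, so differences between genotypes could not be set against replicate error and no test was run. The intervals given are exact at the 95% level and hold counting error alone. A tag is a sequenced read kept by the peak caller, and tags per kb are the tags of a peak over its called width.

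Alternative activation is the state that macrophages enter when interleukin-4 or interleukin-13 binds a receptor containing the chain encoded by Il4ra, which activates the transcription factor STAT6. STAT6 and factors induced by it, among them EGR2, then switch on genes for secreted proteins, lectins and enzymes. H3K4me3 is found at the starts of active or poised genes and often covers CpG-rich promoters, while H3K9me3 is a mark of silenced chromatin.

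H3K4me3 split the 10 genes into equal groups, and the split was the same in both genotypes. The receptor gene Il4ra, the transcription factor gene Egr2, the enzyme genes Arg1 and Tgm2 and the matrix gene Fn1 carried H3K4me3 in both genotypes. The secreted protein genes Retnla and Chil3, the lectin genes Mgl2 and Clec10a and the ligand gene Pdcd1lg2 had no H3K4me3 peak in either. Thus 5 of 10 genes were marked in both genotypes, against 68.5% of all protein-coding genes, and 5 of 10 in neither, against 27.2%. None of the 10 was marked in 1 genotype alone, which was the case for 2.83% of all genes in the wild type alone and 1.45% in Sun-/- alone. With a caller score of at least 100, Arg1 counted as marked in the wild type alone, because its Sun-/- peak had a score of 63.1. In a bulk library, fewer cells that carry a mark and less of the mark per cell cannot be told apart.

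The start regions of the marked genes Il4ra and Egr2 held more CpGs than those of the unmarked Mgl2, Chil3, Pdcd1lg2 and Retnla. The sequences are shown for that reason. RefSeq start windows (GRCm38.p6, the assembly of mm10) run from 250 bases before to 50 bases after a gene start. Windows were found for 6 of the 10 genes, with 5 windows for Egr2. None was found for the marked genes Arg1, Tgm2 and Fn1 or the unmarked Clec10a, so their CpG content is not known here. The starts in the windows of Egr2 (the first at 67535499) and Mgl2 (70130357) lie inside the annotated genes, which begin at 67534469 and 70130125. All bases printed below for Egr2, and most of those for Mgl2, are therefore within the gene and not upstream of it. The 250 bases before the start are printed 5′ to 3′ on the strand of the gene, with every CpG in capitals. They lie at chr7:125552021-125552270 (plus strand) for Il4ra, chr10:67535249-67535498 (plus) for the first Egr2 start, chr11:70130107-70130356 (plus) for Mgl2, chr3:106167565-106167814 (minus) for Chil3, chr19:29410669-29410918 (plus) for Pdcd1lg2 and chr16:48842359-48842608 (plus) for Retnla.
Il4ra: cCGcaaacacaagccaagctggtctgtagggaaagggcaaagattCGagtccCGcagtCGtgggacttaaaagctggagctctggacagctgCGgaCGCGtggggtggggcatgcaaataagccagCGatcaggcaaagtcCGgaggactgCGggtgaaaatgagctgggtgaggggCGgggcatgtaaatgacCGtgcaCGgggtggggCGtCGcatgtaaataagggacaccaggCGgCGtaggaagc
Egr2: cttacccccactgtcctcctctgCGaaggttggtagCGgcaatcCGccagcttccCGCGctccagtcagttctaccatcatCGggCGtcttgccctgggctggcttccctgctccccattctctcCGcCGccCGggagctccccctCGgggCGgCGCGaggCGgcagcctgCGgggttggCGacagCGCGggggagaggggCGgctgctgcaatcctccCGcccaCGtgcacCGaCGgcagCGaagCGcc
Mgl2: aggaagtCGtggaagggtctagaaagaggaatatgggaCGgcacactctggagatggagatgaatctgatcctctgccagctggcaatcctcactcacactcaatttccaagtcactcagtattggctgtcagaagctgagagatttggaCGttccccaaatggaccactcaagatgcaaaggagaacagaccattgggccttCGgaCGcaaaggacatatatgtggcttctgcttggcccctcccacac
Chil3: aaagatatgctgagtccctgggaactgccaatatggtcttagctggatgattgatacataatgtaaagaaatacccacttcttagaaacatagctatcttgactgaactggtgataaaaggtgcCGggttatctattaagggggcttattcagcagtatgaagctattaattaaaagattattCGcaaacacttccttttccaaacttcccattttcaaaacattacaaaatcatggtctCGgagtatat
Pdcd1lg2: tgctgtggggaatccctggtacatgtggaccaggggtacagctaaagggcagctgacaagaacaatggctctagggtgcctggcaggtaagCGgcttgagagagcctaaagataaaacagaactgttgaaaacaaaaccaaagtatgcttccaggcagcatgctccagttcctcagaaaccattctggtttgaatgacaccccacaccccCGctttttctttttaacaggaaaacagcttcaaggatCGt
Retnla: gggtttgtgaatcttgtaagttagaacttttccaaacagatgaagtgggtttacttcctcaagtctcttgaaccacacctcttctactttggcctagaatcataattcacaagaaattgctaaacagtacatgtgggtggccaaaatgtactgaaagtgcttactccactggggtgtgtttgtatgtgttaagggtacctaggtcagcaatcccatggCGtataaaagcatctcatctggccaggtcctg

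The printed stretches of Il4ra and Egr2, both under H3K4me3 in both genotypes, held 17 and 26 CpGs. Those of Mgl2, Chil3, Pdcd1lg2 and Retnla, under no H3K4me3 peak, held 5, 3, 3 and 1. Over the full windows of 300 bases, Il4ra had 25 CpGs and the Egr2 starts had 32, 24, 19, 19 and 16, while Mgl2 had 8, Chil3 and Pdcd1lg2 had 3 each, and Retnla had 2. The same held across the genome, where 12166 of 21262 windows of protein-coding genes lay under H3K4me3 in both genotypes with a median of 22 CpGs, and 8044 lay under it in neither with a median of 3. Of all windows with at least as many CpGs as that of Il4ra, 98.3% were under a wild-type H3K4me3 peak, against 7.81% of windows with at most as many as that of Chil3 or Pdcd1lg2. At the 8 CpGs of Mgl2 both states were common, with 218 windows under H3K4me3 in both genotypes and 283 in neither.

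**Figure D1:**
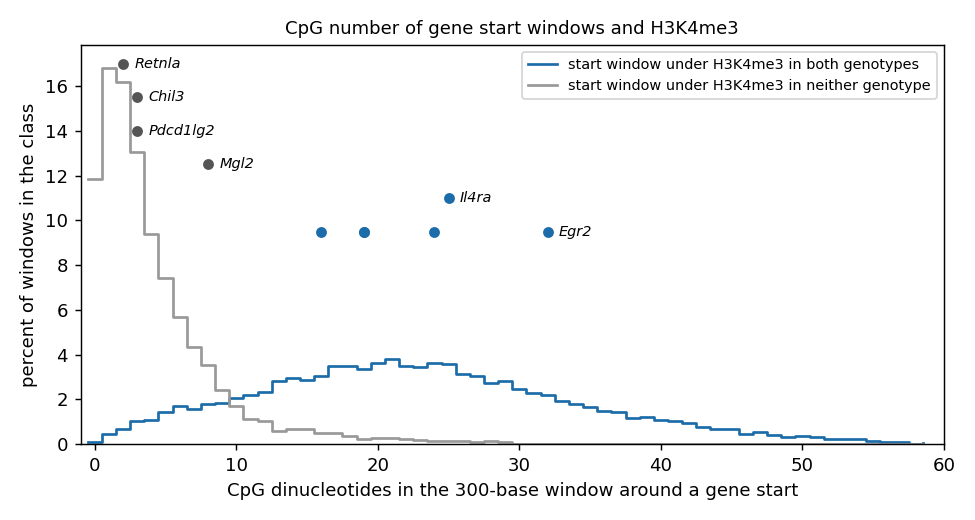
Number of CpG dinucleotides in the 300-base window around a gene start (x axis) and the percent of windows in each class with that number (y axis), for windows under H3K4me3 in both genotypes (blue line) and in neither (grey line). Points mark the windows of 6 alternative activation genes at arbitrary heights: the unmarked genes Retnla, Chil3, Pdcd1lg2 and Mgl2 have 2 to 8 CpGs, and the marked genes Il4ra and Egr2 have 16 to 32.

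Short motifs of factors known from this pathway were searched on both strands of the same windows. The STAT6-type motif, TTC and GAA parted by 4 bases, was found in the window of Retnla, as TTCACAAGAA starting 145 bases before the gene start, and in that of Pdcd1lg2, as TTCCTCAGAA starting 82 bases before it. This motif occurs in 6.35% of all windows. Retnla also held the C/EBP-type motif TTGCNNAA 134 bases before its start, with 1 base between it and the STAT6-type match, a motif found in 10.2% of windows. Chil3 held the STAT-type motif TTCNNNGAA 172 bases before its start (7.69% of windows). The PU.1-type motif GAGGAA, or its complement, was in the windows of Retnla, Mgl2, Pdcd1lg2 and 4 of the 5 Egr2 starts (27.4% of windows), where the match in Pdcd1lg2 overlaps its STAT6-type match. The last 3 Egr2 windows overlap one another and share a single match. The first Egr2 window held the E-box CACGTG (7.84%). TATAAA was in the windows of Retnla, 30 bases before the start, and Chil3, 3 bases before it (12.6%). The EGR-type motif GCGTGGGCG, found in 0.828% of windows, was in none of the 10 windows, and none of the 7 motifs was in the window of Il4ra. These are matches of letters and do not show binding.

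Il4ra (chromosome 7, 125552271 to 125579474) encodes the chain through which both cytokines signal, and it carried a very wide H3K4me3 domain over its start. In the wild type the domain ran from 125550797 to 125555694, with 868 tags over 4898 bp or 177 tags per kb (interval 166 to 189). In Sun-/- cells it ran from 125550649 to 125558120, with 853 tags over 7472 bp or 114 tags per kb (107 to 122). Both summits lay just inside the gene, 136 and 143 bp from its start. Of the wild-type H3K4me3 peaks 244 were wider than this one, and of the Sun-/- peaks 7 were.

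The extra width in Sun-/- cells lay on the side of the gene body, where the called edge was 2426 bp further from the start, and the outer edge moved by 148 bp. The domain was 1.53-fold as wide, and its tag number was nearly the same in a library with fewer tags. Log2 ratios of tags per kb, Sun-/- over wild type, were centred so that the median of all paired peaks was 0, and the centred ratio of this domain was -0.30 (interval -0.43 to -0.16). By tags per peak, without division by width, the centred ratio was 0.45 (0.32 to 0.59), so its direction depended on the measure. The caller takes its background from up to 10000 bp around a peak, and the part this plays in the called width was not tested.

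Inside Il4ra, a further H3K4me3 peak of 102 tags (83.2 to 124) over 1651 bp, from 125575464 to 125577114, was called in Sun-/- cells and overlapped no wild-type peak. It was weak, at 61.8 tags per kb against a median of 72.8 over all Sun-/- H3K4me3 peaks. Past the other end of the gene both libraries had a small peak with its summit at 125581414, which began 1491 bp (wild type) or 1502 bp (Sun-/-) beyond it. Wild-type cells had 57 tags there and Sun-/- cells 52, at 72.6 and 62.5 tags per kb, with a centred log2 ratio of 0.12 (-0.45 to 0.69) that was -0.066 when scaled to filtered tags. Il4ra had no H3K9me3 peak.

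Egr2 (chromosome 10, 67534469 to 67542188) encodes a zinc finger transcription factor that is induced early by interleukin-4. H3K4me3 covered most of the gene, 84.5% of its length in the wild type and 82.4% in Sun-/- cells, in 2 adjoining peaks that were split at nearly the same place. The gap between them ran from 67537387 to 67537469 in the wild type and from 67537406 to 67537516 in Sun-/- cells. The first peak covered the annotated start at 67535499, and the second those at 67537566, 67537869, 67537870 and 67537930. Neither end of the annotated gene was covered. The first peak began 403 bp (wild type) and 493 bp (Sun-/-) inside the lower-coordinate end, and the second stopped 707 and 754 bp short of the other. The first peak had 424 wild-type tags over 2515 bp and 302 Sun-/- tags over 2444 bp, at 169 and 124 tags per kb. The second peak had 647 wild-type tags over 4012 bp and 565 Sun-/- tags over 3918 bp, at 161 and 144 tags per kb.

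Centred on all pairs, the first Egr2 peak had a log2 ratio of -0.11 (-0.33 to 0.11) and the second 0.18 (0.013 to 0.34). Scaled to filtered tags, the first was -0.30 (-0.52 to -0.082) and the second -0.011 (-0.18 to 0.15), so which of the intervals included 0 depended on the scaling. Edges of the Egr2 peaks moved by 19 to 90 bp between the genotypes, while their summits lay 1480 and 1012 bp apart. At the paired starts of Il4ra, Arg1 and Fn1, in contrast, summits lay 0 to 12 bp apart. The noncoding RNA gene Gm32255 ends inside the first Egr2 peak, so these tags cannot be given to 1 gene.

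Arg1 (chromosome 10, 24915207 to 24927470) encodes arginase, which turns arginine into ornithine and urea and is the enzyme most used to identify alternatively activated mouse macrophages. Its H3K4me3 peak was near the middle of the wild-type list in tags and in the lower part of the Sun-/- list. The wild-type peak had 88 tags over 1199 bp (24926792 to 24927990, 73.4 tags per kb, interval 58.9 to 90.4) and the Sun-/- peak 34 tags over 642 bp (24927006 to 24927647, 53.0 tags per kb, 36.7 to 74.0). It had more tags than 49.6% of the wild-type peaks and than 22.8% of the Sun-/- peaks, and a density above 45.3% and 26.3% of them.

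The Arg1 peak was 1.87-fold wider in the wild type, with both edges drawn in by 214 and 343 bp in Sun-/- cells and summits 12 bp apart. Its centred log2 density ratio was -0.13 (-0.75 to 0.45), and by tags per peak it was -0.89 (-1.51 to -0.31). The peak lay across the higher-coordinate end of the gene, where this minus-strand gene starts, and also inside the noncoding RNA gene Gm40616. Strand for Arg1, Tgm2 and Fn1 is general knowledge, since the annotation table used here gives none for them.

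Tgm2 (chromosome 2, 158116405 to 158146392) encodes transglutaminase 2, which crosslinks proteins and is a marker of alternative activation shared by mouse and human macrophages. At its start, the higher-coordinate end, the wild type had a peak of 390 tags over 2087 bp (158144461 to 158146547) at 187 tags per kb (169 to 206). The Sun-/- peak held 491 tags over 4787 bp (158141758 to 158146544) at 103 tags per kb (93.7 to 112). The outer edges differed by 3 bp and the summits by 13 bp, while the inner edge lay 2703 bp deeper in the gene in Sun-/- cells.

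The Sun-/- peak of Tgm2 was thus 2.29-fold as wide, and only 43.5% of it was covered by the wild-type peak, too little to form a pair. The start peaks compared with each other, a setting chosen after the values were seen, had a centred log2 ratio of tags per kb of -0.53 (-0.72 to -0.33), and of 0.81 by tags per peak, so the direction depended on the measure as at Il4ra. Wild-type cells had a second H3K4me3 peak within Tgm2, of 132 tags over 1958 bp (158130308 to 158132265, 67.4 tags per kb), which overlapped no Sun-/- peak. Summed over the locus, Tgm2 had 522 wild-type tags over 4045 bp and 491 Sun-/- tags over 4787 bp. These sums cover different stretches in the 2 genotypes and are not read as a ratio.

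Fn1 (chromosome 1, 71585473 to 71653280) encodes fibronectin, an adhesive matrix protein that macrophages secrete and whose mRNA rises in alternative activation. Its start peak had 376 wild-type tags over 2441 bp (71651944 to 71654384) and 229 Sun-/- tags over 1819 bp (71652491 to 71654309), at 154 (139 to 170) and 126 (110 to 143) tags per kb. Both summits were at the same base inside the gene, 71652961. The wild-type peak reached 547 bp further into the gene, and the centred log2 density ratio was 0.048 (-0.20 to 0.29). That sign turned under tags per peak (-0.24), filtered tags (-0.14) and library totals (-0.039). The peak also covered one end of the noncoding RNA gene Apol7d.

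Fibroblasts and mesothelial cells also make fibronectin, and markers of them are given here for that reason. Of 6 such markers, 1 had no H3K4me3 tags in a wild-type peak and 3 had none in a Sun-/- peak, with summed tags of 1245 and 798. Wt1, Col1a1 and Pdgfra were marked in both genotypes and Upk3b and Krt19 only in wild-type cells, while Msln was at 0 in both. Over all protein-coding genes these states made up 68.5%, 2.83% and 27.2%. The part of such cells in the Fn1 signal was not tested.

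**Figure D2:**
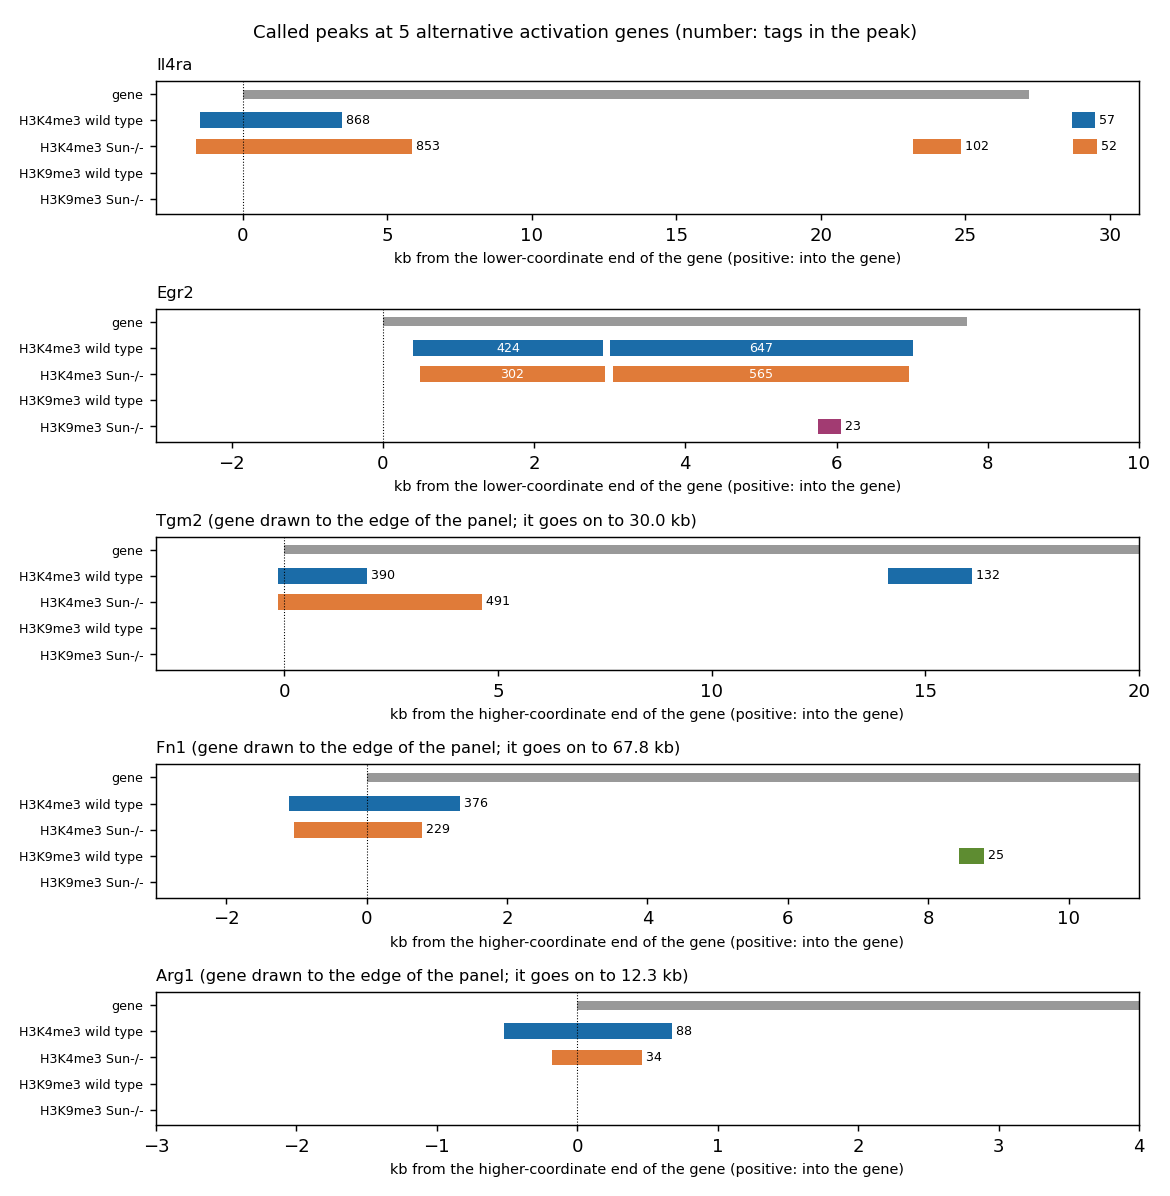
Extent of the called peaks (bars, colour by library, with the number of tags) at Il4ra, Egr2, Tgm2, Fn1 and Arg1, in kb from an end of the gene. The main peak covers that end at every gene but Egr2. Egr2 is drawn from its lower-coordinate end, and its first peak begins 403 bp (wild type) and 493 bp (Sun-/-) inside it. The grey bar is the gene. In Sun-/- cells the start peaks of Il4ra and Tgm2 reach 2426 and 2703 bp further into the gene than in the wild type, those of Arg1 and Fn1 are narrower, and the 2 peaks of Egr2 keep their extent.

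Changes in width went in both directions at these genes. Of 17114 H3K4me3 peaks that paired one to one between the genotypes (at least 50% reciprocal overlap and at least 50 tags in 1 library), 6 lay at these genes, 2 at Il4ra, 2 at Egr2 and 1 each at Arg1 and Fn1. Among them 2 were wider in Sun-/- cells, against 32.3% of all pairs. At least 1.5-fold wider was 1 of the 6, that of Il4ra, against 2.26% of all pairs, and at least 1.5-fold narrower was 1, that of Arg1, against 8.67%. The limit of 1.5-fold was chosen after the widths were seen, and the overlap rule lets a pair differ by at most 2-fold in width, which leaves out Tgm2.

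The centred density ratios of the 6 pairs lay between -0.30 and 0.18, and that of the Tgm2 start peaks, which did not form a pair, was lower than all of them at -0.53. The centring removed the shift of the whole library: scaled to filtered tags, the median log2 ratio of all pairs was -0.19. After centring, the 6 pairs had a median of -0.030, with 3 below 0, against 0 and 50% for all pairs, and an SD of 0.179 against 0.238. None was 2-fold denser in Sun-/- cells (0.0409% of all pairs) or 2-fold less dense (0.0117%). The pair at the Il4ra start had the lowest ratio of the 6, above 8.09% of all pairs, and the second Egr2 pair the highest, above 77.3%.

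**Figure D3:**
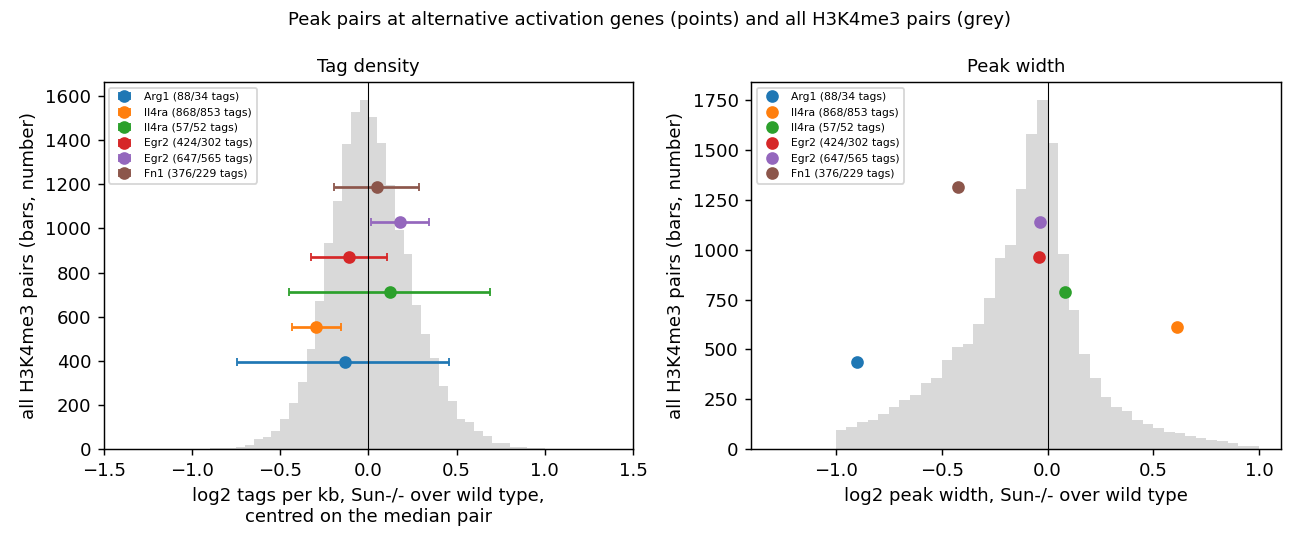
Left: log2 ratio of H3K4me3 tags per kb, Sun-/- over wild type, centred on the median pair, for the 6 pairs at alternative activation genes (points with 95% counting intervals, heights arbitrary) and for all 17114 pairs (grey bars, number of pairs). Right: log2 ratio of peak width for the same pairs, where Arg1 lies at the narrow side and the Il4ra start at the wide side; the legend gives wild-type and Sun-/- tags.

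In tags per kb of wild-type H3K4me3, the start peaks ranked Tgm2 (187), Il4ra (177), the first and second Egr2 peaks (169 and 161), Fn1 (154) and Arg1 (73.4). Neighbours among the first 5 had overlapping counting intervals, and Arg1 lay below all of them with no overlap. In Sun-/- cells the order was the second Egr2 peak (144), Fn1 (126), the first Egr2 peak (124), Il4ra (114), Tgm2 (103) and Arg1 (53.0), where again only Arg1 stood apart from its neighbour. The medians over all peaks were 80.6 and 72.8 tags per kb, which the intervals of the Arg1 start included, while those of every other start lay above.

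**Figure D4:**
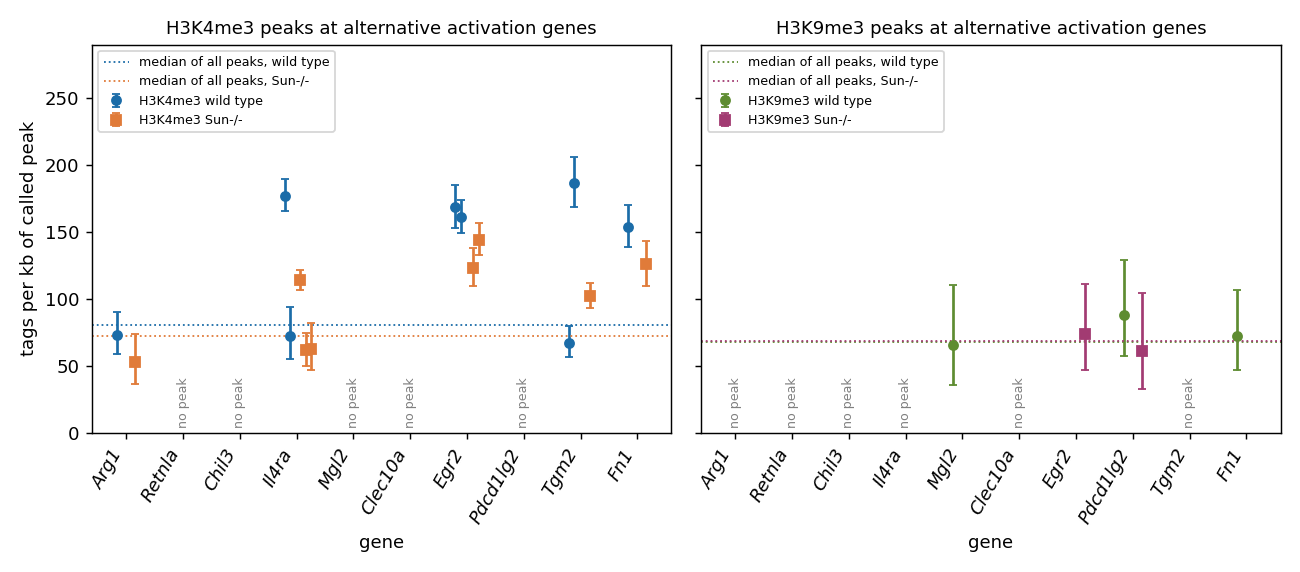
Tags per kb of each called H3K4me3 (left) and H3K9me3 (right) peak at the 10 genes, with 95% Poisson intervals; circles are wild type, squares Sun-/-, and dotted lines the median of all peaks in the library. The start peaks of Il4ra, Egr2, Tgm2 and Fn1 lie above the medians in both genotypes, those of Arg1 have intervals that include them, and 5 genes have no H3K4me3 peak.

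Retnla, which encodes a secreted resistin-like protein that is strongly induced by interleukin-4, lies on chromosome 16 (48842609 to 48844461), and neither mark had a peak within 10000 bp of it in either genotype. The same was true of Clec10a (chromosome 11, 70166623 to 70170836), which encodes a galactose-binding lectin of macrophages and dendritic cells. For Chil3 (chromosome 3, 106147554 to 106167564), a chitinase-like protein also called Ym1, the nearest peaks lay just outside the limit of 2500 bp, 2980 bp (wild type) and 3054 bp (Sun-/-) from the gene. These held 31 and 30 H3K4me3 tags. Within the limit but outside the gene were the Il4ra peaks past the gene end and an H3K9me3 peak 1637 bp past the end of Mgl2.

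H3K9me3 at the 10 genes was limited to 5 short peaks of 13 to 26 tags. Pdcd1lg2 had one in each genotype, Mgl2 and Fn1 had one only in wild-type cells, and Egr2 had one only in Sun-/- cells. That is 1, 2 and 1 of 10 genes, against 17.9%, 9.32% and 11.8% of all protein-coding genes. In all, 4 of 10 genes had an H3K9me3 peak in at least 1 genotype, against 39.1%, and 6 had none in either, against 60.9%. The densities of the 5 peaks, 61.3 to 88.1 tags per kb, had counting intervals that all included the library medians of 68.1 and 68.4. Only 1.69% of wild-type and 1.62% of Sun-/- H3K9me3 tags lay in peaks, and the median peak held 16 and 17 tags. The caller ran with no control, so a called peak may not show that a gene carries the mark. The fragment size that the caller estimated for this mark was 66 and 71 bp against a tag of 50 bp. How far these peaks depend on it was not tested.

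Pdcd1lg2 (chromosome 19, 29410919 to 29472927) encodes PD-L2, a ligand of the inhibitory receptor PD-1 on T cells. Its H3K9me3 peak lay in the first part of the gene, 18024 bp from its start at the nearest, and had 26 wild-type tags (29428943 to 29429237) and 13 Sun-/- tags (29428946 to 29429157). Too few tags were present for the pair rule. Over the locus the centred log2 ratio of tags per kb was -0.55, with an interval of -1.63 to 0.46 that spans 0. Mgl2 (chromosome 11, 70130125 to 70137542) encodes a second galactose-binding lectin, and its wild-type peak held 14 tags (70139179 to 70139390). Fn1 had a wild-type peak of 25 tags deep in the gene (71644493 to 71644838).

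The Egr2 H3K9me3 peak of Sun-/- cells (67540225 to 67540535, 23 tags) lay wholly within the second H3K4me3 peak of both genotypes. It was the one place at these genes where both marks were called on the same bases. Of the 5 genes with H3K4me3 in both genotypes 2 had an H3K9me3 peak in at least 1 genotype, against 50% of all such genes. Among the 5 without H3K4me3 the count was also 2, against 12%. With 5 genes each, these shares do not separate the groups.

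The genes most like each strongly marked gene in tags per kb of called peak over the 4 libraries were found by the smallest summed difference of log2(tags per kb + 1). They were Clic3 for Il4ra, Ssu72 for Egr2, Tma7 for Tgm2 and Ncs1 for Fn1, with summed differences of 0.0095, 0.043, 0.0083 and 0.040. Like Egr2, Ssu72 had an H3K9me3 peak of its own in Sun-/- cells alone, at 73.3 against 74.0 tags per kb. Like Fn1, Ncs1 had one in the wild type alone, at 72.9 against 72.3. The H3K9me3 values were part of the measure, so this likeness follows from how the genes were chosen.

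Other genes of the interleukin-4 pathway were marked more widely than the 10. Of 48 ligand, receptor, kinase, regulator and target genes, 41 (85.4%) had H3K4me3 in both genotypes, against 68.5% of all genes. The chemokine gene Ccl17 had a peak only in wild-type cells, of 71 tags, and the scavenger receptor gene Msr1 only in Sun-/- cells, of 36 tags. Unmarked in both were Il4, Il13ra2, Ccl22, Chil4 and Cd209a, which are outside the rule for named genes and complete the count. The 32 genes with a pair had a median centred log2 density ratio of -0.030, with 15 above and 17 below 0, and none was 2-fold apart.

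The highest of these ratios were F13a1, a coagulation factor subunit gene induced by interleukin-4, at 0.71 (0.12 to 1.31) with 42 and 60 tags in wild-type and Sun-/- peaks, the lipid receptor gene Cd36 at 0.59 (-0.04 to 1.24) with 34 and 59, and Il1rn, the interleukin-1 receptor antagonist gene, at 0.52 (0.09 to 0.96) with 83 and 100. The lowest were Socs1, an inhibitor of cytokine receptor signalling, at -0.35 (-0.50 to -0.19) with 717 and 631 tags, the H3K27 demethylase gene Kdm6b at -0.31 (-0.48 to -0.15) with 777 and 503, and the arginine transporter gene Slc7a2 at -0.25 (-0.50 to -0.004) with 331 and 233. Peaks at the 3 highest ratios held at most 100 tags and those at the 3 lowest at least 233. These ratios cover only the paired peak of each gene. Over all peaks in wild-type and Sun-/- cells, F13a1 had 140 and 94 tags, Cd36 128 and 59, and Il1rn 109 and 100. At these 3 genes the summed tags were thus lower in Sun-/- cells, in a library with fewer tags, while the paired ratio was above 0.

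Genes of classical activation, the state induced by bacterial products and interferon gamma, gave a comparison. Of 27 such genes 17 (63.0%) had H3K4me3 in both genotypes, 2 only in wild-type cells and 3 only in Sun-/- cells, against 68.5%, 2.83% and 1.45% of all protein-coding genes. Their 13 paired members had a median of 0.22, against -0.030 for the interleukin-4 list and 0 for all pairs, with 10 above 0. The highest was Il6 at 0.68 (0.094 to 1.28) with 37 and 79 tags in wild-type and Sun-/- peaks. The lowest was Ifngr2 at -0.39 (-0.62 to -0.16) with 344 and 307. Genes marked in 1 genotype alone form no pair: Tnf (348 tags) and Il1b (27) in wild-type cells, Il23a (53), Ccl5 (80) and Ccr7 (66) in Sun-/- cells. Over all peaks the 27 genes had 6305 wild-type and 4798 Sun-/- tags, and the 48 interleukin-4 pathway genes 23885 and 16462. Scaled to filtered tags the medians of the classical and interleukin-4 lists were 0.034 and -0.22. Of 20 genes for integrins, matrix proteins and enzymes that act on matrix, 16 were marked in both genotypes, against 68.5% of all genes. Plod1 (341 tags) and Col1a2 (79) were marked only in wild-type cells and Col3a1 (20) only in Sun-/- cells. Over all protein-coding genes these states made up 2.83% and 1.45%. The 13 paired genes of this list had a median of -0.0072. The highest was Spp1 at 0.39 (-0.26 to 1.03) with 50 and 38 tags. The lowest was Itga5, a chain of the fibronectin receptor, at -0.22 (-0.37 to -0.068) with 797 and 650.

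Markers of the labelled cell type were checked in the same way. All 10 macrophage markers carried H3K4me3 in wild-type and Sun-/- cells alike. So did 3 of 5 dendritic cell markers, 2 of 5 for B cells, 2 of 5 for T or NK cells, 1 of 5 eosinophil markers, 1 of 4 mast cell markers, 0 of 5 neutrophil markers and 2 of 5 markers of resident large peritoneal macrophages, where the share over all protein-coding genes is 68.5%. In 1 genotype alone, Icam2 (95 tags) and Cd5l (22) of the resident macrophage markers and the neutrophil marker Mpo (34) had wild-type peaks, and the neutrophil markers S100a8 (21) and Camp (56) had Sun-/- peaks. Over all protein-coding genes these states made up 2.83% (wild type alone) and 1.45% (Sun-/- alone), and a difference in cell make-up was not tested. The eosinophil markers, of a cell that also makes proteins of alternative activation, had 32 and 75 summed tags, all at Siglecf. Libraries held 26748289 to 29681491 tags after removal of duplicates.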

How the data were processed

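ChIP-seq peak lists for H3K4me3 and H3K9me3 in wild-type and Sun-/- macrophages were used, 1 list per library. Per the file headers, the caller was MACS 1.4.2, run with no control, a p-value limit of 1e-05, a local background of up to 10000 bp and 1 tag kept per position. Build mm10, CASAVA 1.4, Bowtie 0.12.8 and DiffBind were named, with no roles, per the submitters' processing notes. The deposited values of a peak were its tag count, a score (a multiple of its negative log10 p), its fold enrichment (a linear ratio over local background) and other measures in bp, namely position, width and summit. The authors' scores and fold values served only to describe or filter peaks inside 1 list.

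Genes and start windows came from RefSeq tables of GRCm38.p6. Tags per kb, exact Poisson intervals, and the log2 ratio over peak pairs with its exact conditional binomial interval were computed with Python 3.11.15, numpy 2.4.6, pandas 2.3.3 and scipy 1.17.1. The ratio step was tested on simulated data in which tag counts were redrawn and peak positions and widths were left unchanged. The pairing of peaks that differ in position or width was therefore not tested. The genes, the lists and the rule for named genes (the 10 genes, pathway genes marked in 1 genotype alone, the 3 highest and 3 lowest pathway ratios, the extremes of other lists, the gene nearest in density to each of the 10 with at least 100 H3K4me3 tags, and genes that share a peak) were chosen with earlier results of these data known. Cxcl11 and Tpsab1 are pseudogenes in the table and were left out. Alternatives were windows of 0, 1000 and 5000 bp, a score of at least 100, 2 other scalings, tags per peak, 80% overlap, any overlap (added after seeing the data), minimums of 20 and 100 tags, and locus sums.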

Additional observations from a re-analysis of the deposited data

How the results depend on the processing

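The split of the 10 genes by H3K4me3 was the same with windows of 0 and 1000 bp. With 5000 bp, Chil3 counted as marked in both genotypes, which gave 6 marked and 4 unmarked genes, Sun-/- H3K9me3 peaks numbered 4 in place of 2, and genes with H3K9me3 in Sun-/- alone 2 in place of 1. With windows of 0 and 1000 bp, genes with H3K9me3 in the wild type alone numbered 1 in place of 2. A score of at least 100 left 4 Sun-/- H3K4me3 peaks, 0 Sun-/- H3K9me3 peaks, 1 gene with H3K4me3 in the wild type alone, and 0 genes with H3K9me3 in both or in Sun-/- alone. The median log2 H3K4me3 density ratio of the 6 pairs, -0.030, was -0.22 scaled to filtered tags, -0.12 scaled to library totals, 0.14 with tags per peak and 0.16 with 80% overlap, which left 3 pairs. With any overlap allowed, a setting chosen after seeing the data, Tgm2 entered as a seventh pair at -0.53 and the median was -0.12. For H3K9me3 no pair met the rule, and 1 did with at least 20 tags or with locus sums. Scaled to filtered tags and to library totals, list medians were -0.22 and -0.12 for the interleukin-4 pathway, 0.034 and 0.14 for classical activation, and -0.20 and -0.095 for matrix and integrin genes. With a window of 1000 bp, interleukin-4 pathway genes with H3K4me3 in Sun-/- alone numbered 2 and classical genes in the wild type alone 1. No paired analysis was possible because each group holds 1 library. Peaks under the caller's limit are not listed, so a gene without a peak may still carry the mark at a lower level.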

Other observations

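Next to Chil3, 1 short region carried both marks. H3K4me3 peaks of 31 tags in the wild type (106143954 to 106144574) and 30 tags in Sun-/- cells (106144000 to 106144500) overlapped an H3K9me3 peak of 33 tags in Sun-/- cells (106144022 to 106144432), and a second Sun-/- H3K9me3 peak of 18 tags began at 106142988. On the start side of Chil3, 3436 bp away, an H3K4me3 peak of 31 tags was called in the wild type alone.

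Ado, the gene next to Egr2 and outside its window, had an H3K4me3 peak with 724 wild-type and 477 Sun-/- tags, at 207 and 202 tags per kb. Around Pdcd1lg2, H3K4me3 peaks of 36 and 52 tags lay 7896 and 7284 bp before the gene in wild-type and Sun-/- cells, and 1 of 34 tags lay 5212 bp past its end in the wild type alone.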
